A study of Sus scrofa with 9 samples.

Results

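The annexins are calcium-dependent proteins that bind acidic phospholipids at the inner face of cell membranes. The 9 genes described here are ANXA1, ANXA2, ANXA3, ANXA4, ANXA5, ANXA6, ANXA7, ANXA8 and ANXA11, out of 19535 gene rows in the count table. They were chosen by gene symbol, at a time when earlier results of these data were known, and all 9 passed the filter on low counts. Of the other annexin symbols in the table, ANXA9 had 28 to 62 counts per library, ANXA10 had 0 counts in all 9 libraries and ANXA13 had 4 to 26 counts, and these 3 genes were not included.

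Annexins share a core of repeats that binds calcium and membrane, and they differ in a short N-terminal stretch that binds partner proteins, often of the S100 family. They take part in membrane repair, in the sorting of endosomes and in secretion. In mineralizing tissue they are known from matrix vesicles, the small membrane particles in which calcium phosphate is first deposited, and ANXA5, ANXA2 and ANXA6 are the members usually found there.

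The cells were porcine valvular interstitial cells (PVICs), the fibroblast-like cells of the aortic valve, isolated from leaflets of pigs aged 4 to 5 months after the endothelium had been scraped off. The control group was kept in DMEM. The OIM group was kept in osteogenic medium, which added insulin, ascorbic acid (50 µg/mL) and the phosphate salt sodium dihydrogen phosphate (2 mmol/L), and the bFGF group received the same medium with basic fibroblast growth factor at 50 ng/mL, so that the bFGF group carries the osteogenic treatment as well. Treatment lasted 3 days per the labels, while the methods of the study give a shorter time before RNA extraction, no gene was altered in any group, and 3 libraries were sequenced per group. Neither the labels nor the methods say whether the 3 libraries of a group came from separate pigs or cultures, so the p-values measure the spread between these libraries, which may be technical.

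The libraries held 57075793 to 64723837 gene counts in the control group, 57682710 to 67371523 in the OIM group and 46773376 to 48270827 in the bFGF group. The summed level of 9 interstitial cell markers was 38750 to 70380 CPM (counts per 1000000, on library sizes scaled by TMM, the trimmed mean method of edgeR) in every library, whereas 7 leukocyte markers together reached 1.55 to 3.61 CPM, and 4 epithelial markers together stayed at or below 0.22 CPM with KRT5 at 0. OIM replicate 2 differed more from the other OIM libraries than any other replicate did from its group, with a mean chi-square per gene of 19 and 19.1 against 4.69 to 11.6 for all pairs without it. As a check of the labels, 5 of 5 genes known to respond to fibroblast growth factor (SPRY2, SPRY4, DUSP6, ETV4 and ETV5) rose in the bFGF group compared to the OIM group, where 17.7% of all genes did, with log2 fold changes of 1.33 to 2.72. Among the OIM libraries each of these 5 genes was highest in replicate 2, such as ETV4 at 22.4 CPM against 15.6 and 13.5 CPM. The reason was not tested.

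In the annotation of Sscrofa11.1, the build of the study, the 9 genes lie at separate places and overlap no other gene. ANXA8 lies on the minus strand at chr14:88319209-88340716 and has 13 exons. ANXA7, also on the minus strand, and ANXA11, on the plus strand, are on the same chromosome at chr14:76205238-76234646 and chr14:81835205-81879565. ANXA1 and ANXA2 are on the plus strand at chr1:226414200-226431963 and chr1:111588721-111635064, ANXA5 on the plus strand at chr8:102387833-102420868, and ANXA6, with 27 exons, on the plus strand at chr16:71857229-71913723. ANXA4 lies on the minus strand at chr3:72623311-72654591 in a gene model marked as partial, with 955 bases of exon, so its level per length and its annotated start are uncertain. The longest run of identical bases shared by the transcripts of any pair of members was 19 bases.

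ANXA3, on the plus strand at chr8:73970314-73993039, is the only member with a near-identical copy elsewhere. Its gene model has 5 exons, against 12 to 27 in the other members. Of 2 matches of its transcript elsewhere, the longer covers 2233 bases at 99.91% identity at chr8:74005516-74007748, inside the gene LOC102167454. How reads that fit both places were counted is not given in the sources used here, and the values of ANXA3 are therefore uncertain.

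The region around each annotated start (250 bases before to 50 after) was searched on both strands for 4 short motifs: TGANTCA for AP-1, CCGGAA for ETS factors, GGGCGG for the GC box and TATAAA, the core promoter box. The GC box was found in 4 of the 9 members and in 50.76% of 19278 promoters of the annotation. These 4 members are ANXA2, ANXA6, ANXA7 and ANXA11. ANXA8, whose level differed most between groups, held none of the 4 motifs, as did ANXA1 and ANXA5. The windows are shown to place these matches, each 30 bases and read on the strand of the gene, with the GC box in capitals and, for ANXA8, the first transcribed base in capitals.
ANXA8 at chr14:88340716-88340745: ccctcttcctgcctgactccatgacatcaC
ANXA2 at chr1:111588595-111588624: gctcggaggcggGGGCGGaccaatcgtttg
ANXA6 at chr16:71857180-71857209: ggggtggggggaGGGCGGaggcggggcgag
ANXA7 at chr14:76234838-76234867: tcaccactaaagGGGCGGcagagaaccgtc
ANXA11 at chr14:81835135-81835164: cttctcacctggGGGCGGgagctgggggca
There were 10 GC box matches in all, 2 each in ANXA2, ANXA6 and ANXA7 and 4 in ANXA11, of which 1 per gene is shown. The matches to other motifs were an AP-1 motif at 1 place in ANXA4, found on both strands and before the uncertain start, and 2 matches of the core promoter box in ANXA3, inside the transcribed part. AP-1 was found in 6.069%, ETS in 17.9% and the core promoter box in 10.85% of all promoters. The GC content of the windows differed widely among members, from 38.33% in ANXA1 and 42.67% in ANXA5 to 68.67% in ANXA11 and 71% in ANXA2, with 55.67% in ANXA8 and a median of 58.67% over all promoters. The sequences were read from the RefSeq assembly, and a match is a description of the letters, not of a bound site.

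The family as a whole was a small part of the RNA. Annexin counts made up 0.334% ± 0.00992 (SD, n = 3) of all gene counts in the control group, 0.302% ± 0.00246 in the OIM group and 0.309% ± 0.00298 in the bFGF group. The control libraries (0.325% to 0.344%) lay above all others, and the OIM libraries (0.299% to 0.304%) lay below the bFGF libraries (0.307% to 0.313%). This last order depends on the most abundant genes of each library. In the control and OIM libraries 12.7% to 13.7% of counts fell on the leading 10 genes, compared to 8.35% to 8.45% in the bFGF libraries, and with the 50 most abundant genes left out of the total the annexin share was 0.444%, 0.399% and 0.367% in the control, OIM and bFGF groups. In bulk RNA of this kind, fewer cells of a type and less RNA per cell cannot be told apart.

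Members can be compared with each other only per length, here as CPM per kilobase of exon. In the control group the order was ANXA2 (685 ± 6.07 CPM per kilobase), ANXA5 (398 ± 17.4), ANXA1 (299.7 ± 16.2), ANXA6 (173 ± 5.57), ANXA8 (166 ± 3.75), ANXA4 (62.9 ± 2.51), ANXA7 (56.9 ± 1.46), ANXA11 (50.6 ± 0.487) and ANXA3 (0.717 ± 0.072). ANXA6 and ANXA8 overlapped between control libraries and cannot be ordered, while all other neighbours were separate with merged exons as the length. The OIM group had the same order with no overlap at that length, from 606 ± 3.58 CPM per kilobase for ANXA2 to 0.7 ± 0.117 for ANXA3. With the longest transcript as length, ANXA7 and ANXA11 were nearly level, at 56.9 and 56.1 in the control group and 52.4 and 52.0 in the OIM group. Overlap was not examined with that length.

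The bFGF group kept the order of the first 4 members and changed that of the next 4. ANXA2 (543 ± 15.8 CPM per kilobase), ANXA5 (385 ± 2.76), ANXA1 (259.7 ± 0.731) and ANXA6 (144 ± 0.519) were followed by ANXA7 (65 ± 1.22), ANXA11 (41.7 ± 0.525), ANXA4 (37.4 ± 1.85) and ANXA8 (23.2 ± 0.925). ANXA8 was thus in position 5 in the control and OIM groups and in position 8 in the bFGF group. ANXA3 was last in every group, with a level that is uncertain because of its near copy.

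**Figure D1:**
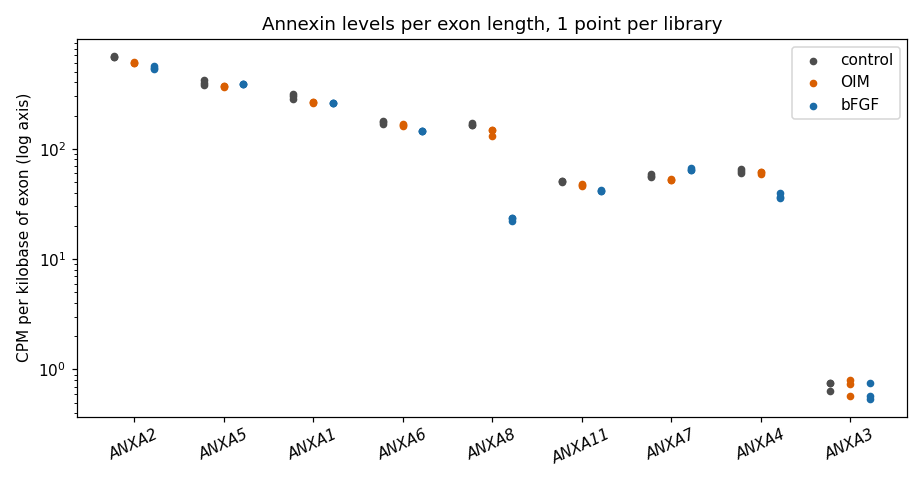
Level of each annexin in every library, in CPM per kilobase of merged exon on a log axis, with 1 point per library and the control, OIM and bFGF groups side by side. ANXA8 sits at 166 and 142 CPM per kilobase in the control and OIM groups and at 23.2 in the bFGF group, and ANXA3 lies below 1 in all groups.

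The first comparison asks what osteogenic medium did to these genes. No annexin changed by the full criterion, which asks for a Benjamini-Hochberg adjusted p of at most 0.05 over the 13662 genes tested with edgeR's quasi-likelihood method and for a log2 fold change of 0.5 or more in size. The counts were 0 of 9 higher, where 1.49% of all genes tested were called higher, and 0 of 9 lower, where 0.864% were called lower, and DESeq2 also called 0. The 9 log2 fold changes ran from -0.23 to -0.03 with a median of -0.11, against a median of -0.00191 over all genes. That of ANXA3, the nearest to 0, turned without control replicate 2 (0.0075), control replicate 3 (0.013) or OIM replicate 1 (0.093). By adjusted p alone 5 of 9 were lower and 0 higher (5.87% and 7.69% of all genes), a count that ran from 3 to 6 over 16 alternatives and was 3 in 8 of them, including those without control replicate 1 or 3, OIM replicate 1 or 3, or bFGF replicate 1 or 2. By unadjusted p 7 of 9 passed 0.05 (26.2% of all genes). In 7 of 9 members every OIM library lay below every control library and in 0 of 9 above, which was the case in 14.2% and 14.5% of all genes. These shares are over tested genes of any level, whereas ANXA1, ANXA2, ANXA5 and ANXA6 ranked between 70 and 365 by CPM in every library. Small differences are separated more easily in abundant genes, and shares among genes of like level were not computed.

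ANXA8, an annexin with anticoagulant activity that is found on late endosomes, had 333, 323 and 319 CPM in the 3 control libraries and 289, 255 and 289.7 CPM in the 3 OIM libraries. The groups did not overlap, and OIM replicate 2 was the lowest. The log2 fold change was -0.23 ± 0.05 (SE, edgeR adjusted p = 0.00179). Without OIM replicate 2 it was -0.17 with an adjusted p of 0.00217. Myofibroblast and smooth muscle markers also moved in this comparison. MYH11 rose by a log2 fold change of 1.13 ± 0.14 (SE, edgeR adjusted p = 1.02e-05), and CNN1 (0.48) and ACTA2 (0.32) were higher by adjusted p alone (0.000381 and 0.00776). The summed level of the 4 markers was 9566 to 10090 CPM in the control libraries and 9851 to 13050 CPM in the OIM libraries, and the groups overlapped. Of the 9 interstitial markers 4 were lower by adjusted p alone and 0 higher (5.87% and 7.69% of all genes), namely VIM, DCN, LUM and PDGFRA, and the median log2 fold change of the 9 was -0.11. Their sum came mostly from COL1A1, COL1A2 and COL3A1, none of which passed by adjusted p. It was 65000 to 70380 CPM in the control libraries and 61570 to 64380 CPM in the OIM libraries, without overlap. The part of these markers in the lower annexin levels was not tested.

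ANXA2 is the most abundant member and forms a complex with S100A10 at the plasma membrane. It had 1252, 1231 and 1235 CPM in the control libraries and 1091, 1103 and 1093 CPM in the OIM libraries. The 2 groups were well separated, and the log2 fold change of -0.18 ± 0.03 (SE, edgeR adjusted p = 0.000614) corresponds to 0.884 times the control level.

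ANXA1, an inhibitor of inflammation that was first known as a blocker of phospholipase A2, had 477, 429 and 457 CPM in the control libraries and 393, 399.6 and 402 CPM in the OIM libraries. All OIM libraries were below all control libraries, with a wider spread in the control group. The log2 fold change was -0.19 ± 0.04 (SE, edgeR adjusted p = 0.00157).

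ANXA5, which binds phosphatidylserine and is used to stain dying cells, and ANXA7, which takes part in the fusion of secretory granules, were closer to the threshold. ANXA5 had 773, 709 and 738 CPM in the control libraries and 687, 680.3 and 687 CPM in the OIM libraries, a log2 fold change of -0.11 ± 0.03 (SE, edgeR adjusted p = 0.0354). ANXA7 had 115, 111 and 109 CPM against 102, 103 and 104 CPM, a log2 fold change of -0.12 ± 0.04 (SE, edgeR adjusted p = 0.0409). Neither gene overlapped between the groups, but over 17 alternative settings the adjusted p of ANXA5 ran from 0.0087 to 0.185 and passed in 9, and that of ANXA7 ran from 0.0323 to 0.151 and passed in 4.

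The other 4 members did not pass by adjusted p. ANXA6 had a log2 fold change of -0.07 ± 0.03 (SE) and ANXA11 of -0.11 ± 0.04, with edgeR adjusted p of 0.191 and 0.0564. In both genes the OIM libraries lay below the control libraries, in ANXA6 only just, with the highest OIM library and the lowest control library both at 425 CPM. ANXA4 and ANXA3 overlapped between the groups, and the 95% interval of the log2 difference ran from -0.16 to 0.05 for ANXA4 and from -0.49 to 0.43 for ANXA3.

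**Figure D2:**
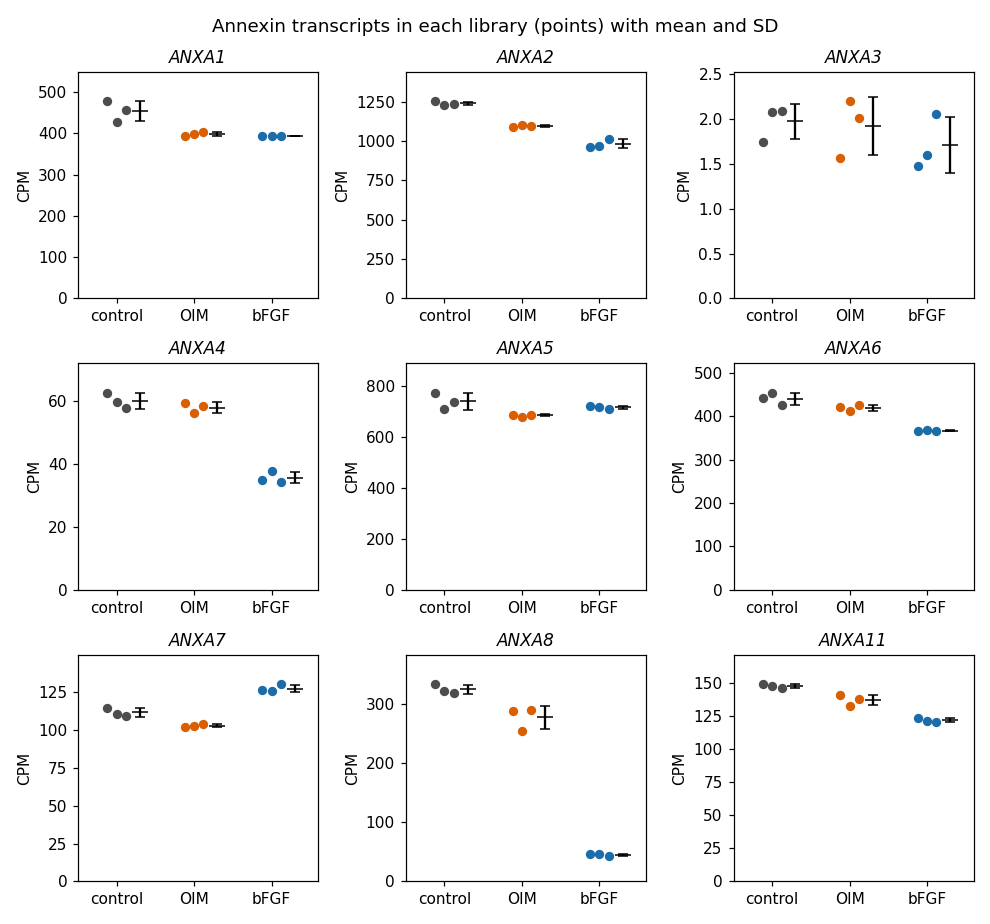
CPM of each annexin in every library of the control, OIM and bFGF groups (points), with the mean and SD of the 3 libraries beside them, each panel starting at 0. ANXA8 lies between 255 and 333 CPM in the control and OIM libraries and between 43.3 and 46.4 CPM in the bFGF libraries, and ANXA4 between 56.1 and 62.7 CPM and between 34.4 and 37.8 CPM.

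The second comparison asks what bFGF did in cells that received osteogenic medium. ANXA8 and ANXA4 fell, ANXA8 to 0.163 times and ANXA4 to 0.617 times the OIM level. No annexin rose by the full criterion, although ANXA7 was 1.24 times as high (edgeR adjusted p = 3.94e-07). These are 2 of 9 called lower, where 18.4% of all genes tested were called lower, and 0 of 9 called higher, where 17.7% were, and DESeq2 also called 0 higher. By adjusted p alone 5 members were lower and 1 was higher (33.5% and 33.8% of all genes), by unadjusted p 6 of 9 passed 0.05 (69.8%), and 5 members lay below and 2 above the OIM group without overlap (35.8% and 36.3% of all genes). By the full criterion the share of members called was thus close to that of all genes for lower calls and under it for higher calls. The balance by adjusted p alone turned with library totals alone, to 2 lower (ANXA4 and ANXA8) and 3 higher (ANXA1, ANXA5 and ANXA7). That scaling moved all genes, to a median of 0.22 and to 3733 of 13662 called higher and 1694 lower by the full criterion. The share of all genes by adjusted p alone was not computed for it. With TMM scaling the median log2 fold change of the 9 members was -0.17, against -0.00293 for all genes.

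ANXA8 had 15660, 16624 and 16550 counts in the OIM libraries and 2489, 2415 and 2250 counts in the bFGF libraries. In CPM these were 289, 255 and 289.7 against 46.4, 46.4 and 43.3, so that the lowest OIM library was still far above the highest bFGF library. The log2 fold change was -2.62 ± 0.05 (SE, edgeR adjusted p = 4.22e-19), and over the 17 alternatives it ran from -2.65 to -2.39. It was the only member whose log2 fold change reached 1 in size in any comparison. Within the family the share of annexin counts that fell on ANXA8 was 9.24% in the control group, 8.75% in the OIM group and 1.63% in the bFGF group.

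ANXA4, a membrane-binding annexin known mainly from secretory epithelia, had 59.4, 56.1 and 58.5 CPM in the OIM libraries and 35.1, 37.8 and 34.4 CPM in the bFGF libraries. The groups were far apart relative to their spread, and ANXA4 was the other member that fell, by 0.70 on the log2 scale (SE 0.05; edgeR adjusted p = 2.39e-10). With library totals alone as the scaling, the log2 fold change was -0.48, just short of the limit of 0.5.

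ANXA7 moved the other way. It had 102, 103 and 104 CPM in the OIM libraries and 127, 126 and 130.2 CPM in the bFGF libraries, with all bFGF libraries above all OIM and all control libraries. The log2 fold change was 0.31 ± 0.04 (SE), below the limit of 0.5, and it was 0.53 with library totals alone. ANXA11 binds membrane and RNA granules. The ratio of ANXA7 counts to ANXA11 counts, which does not depend on the scaling of a library, was 0.758 ± 0.0128 (SD, n = 3) in the control group, 0.752 ± 0.0235 in the OIM group and 1.05 ± 0.0289 in the bFGF group.

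ANXA2, ANXA6 and ANXA11 were lower in the bFGF group by adjusted p alone, but with library totals alone their log2 fold changes turned to 0.06, 0.03 and 0.05. ANXA2 had 962, 971 and 1015 CPM in the bFGF libraries, below the 1091 to 1103 CPM of the OIM libraries, with a log2 fold change of -0.16 ± 0.03 (SE, edgeR adjusted p = 0.000187). ANXA6, a larger annexin that gathers cholesterol and actin at endosomes, had 366, 368 and 365 CPM against 420.0, 412 and 425 CPM, with a log2 fold change of -0.19 ± 0.03 (SE, edgeR adjusted p = 4.05e-05). ANXA11 had 123, 121 and 120.2 CPM against 140.4, 133 and 137 CPM, with a log2 fold change of -0.17 ± 0.04 (SE, edgeR adjusted p = 0.000369). Library totals alone moved the median of all genes to 0.22 on the log2 scale, and all 3 members remained below that median.

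ANXA1 and ANXA5 did not pass with TMM scaling. ANXA1 had 395, 394 and 392 CPM in the bFGF libraries, within or near the 393 to 402 CPM of the OIM libraries, and the 95% interval of the log2 difference ran from -0.10 to 0.06. ANXA5 had 721, 719 and 711 CPM, all above the 680.3 to 687 CPM of the OIM libraries, with a log2 fold change of 0.07 ± 0.03 (SE, edgeR adjusted p = 0.098) and an interval of -0.00609 to 0.14. Both passed as higher by adjusted p with library totals alone, ANXA1 at 0.20 (adjusted p = 0.000139) and ANXA5 at 0.29 (adjusted p = 4.82e-07), against a median of all genes of 0.22.

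ANXA3, known mainly from neutrophils, had 1.57, 2.20 and 2.01 CPM in the OIM libraries and 1.47, 1.60 and 2.06 CPM in the bFGF libraries, from 79 to 143 counts in each of the 9 libraries of the study. The groups overlapped, and the interval of the log2 difference, -0.64 to 0.29, covers changes of the size seen in most other members. LOC102167454, which holds the near copy and was added after its values had been seen, had 9.33 ± 1.17 CPM (SD, n = 3) in the OIM group and 7.24 ± 0.444 CPM in the bFGF group, with a log2 fold change of -0.36 ± 0.11 (SE, edgeR adjusted p = 0.00581) that was -0.14 with library totals alone (adjusted p = 0.252).

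**Figure D3:**
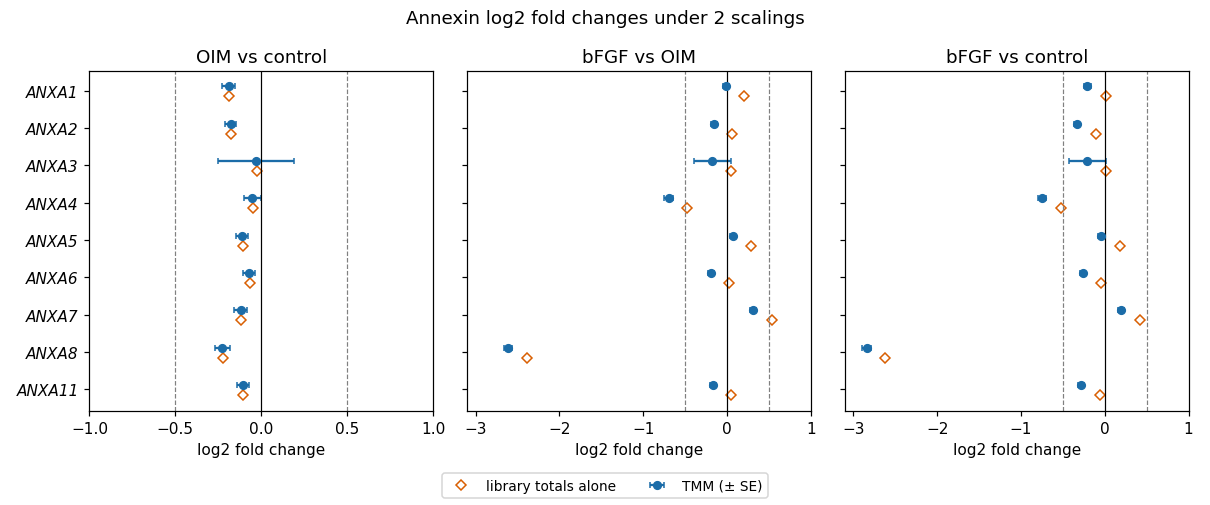
Log2 fold change of each annexin in the 3 comparisons, with TMM scaling (filled points, bars are ± 1 SE) and with library totals alone (open diamonds); the dashed lines mark the limit of 0.5 in either direction. ANXA8 at -2.62 and ANXA4 at -0.70 pass the limit for bFGF against OIM with TMM, and with library totals alone ANXA4 is at -0.48 and ANXA1, ANXA2, ANXA3, ANXA6 and ANXA11 change sign.

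Against the control group, which shares the bFGF libraries with the comparison above, the bFGF group gave the same 2 calls. ANXA8 was at 0.14 times and ANXA4 at 0.595 times the control level, with log2 fold changes of -2.84 ± 0.05 and -0.75 ± 0.05 (SE, edgeR adjusted p = 8.15e-20 and 6.8e-11). These are 2 of 9 called lower against 20.0% of all genes, and 0 of 9 called higher against 18.9%, with 0 called higher by DESeq2 too and 7 of 9 past an unadjusted p of 0.05 (72.3% of all genes). By adjusted p alone 6 members were lower and 1 was higher (35.7% and 34.5% of all genes), compared to 3 lower (ANXA2, ANXA4 and ANXA8) and 2 higher (ANXA5 and ANXA7) with library totals alone. That scaling moved all genes, to a median of 0.21 and to 3931 of 13662 called higher and 1840 lower by the full criterion. The share of all genes by adjusted p alone was not computed for it. With TMM scaling 6 members lay below and 1 above the control group without overlap (37.3% and 36.4%), and the median of the members was -0.26 against -0.0161 for all genes. ANXA7 had a log2 fold change of 0.19 ± 0.04 (SE, edgeR adjusted p = 0.000139).

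ANXA2, ANXA6 and ANXA11 were lower than in the control group by 0.33, 0.26 and 0.28 on the log2 scale, with edgeR adjusted p of 9.45e-09, 7.62e-07 and 1.12e-06. With library totals alone these differences shrank to -0.11, -0.04 and -0.05, with adjusted p of 0.00474, 0.279 and 0.193, so that only ANXA2 still passed by adjusted p. ANXA2, the largest of these, was 0.793 times the control level, in steps of -0.18 from control to OIM and -0.16 from OIM to bFGF. ANXA1 had a log2 fold change of -0.21 ± 0.04 (SE, edgeR adjusted p = 5.82e-05), which became 0.02 with library totals alone. For ANXA5 the interval was -0.12 to 0.03 and for ANXA3 -0.68 to 0.26, and both signs turned with library totals alone, to 0.18 and 0.02, where ANXA5 passed as higher by adjusted p (0.000168).

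**Figure D4:**
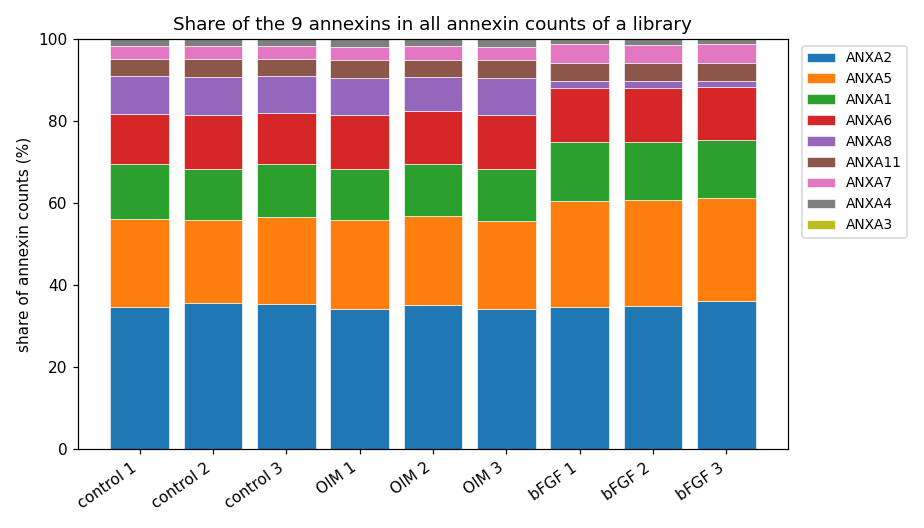
Share of each annexin in all annexin counts of a library, in percent, 1 bar per library; counts are not divided by gene length, and ANXA3 is too small to be seen. The ANXA8 segment is 8.12% to 9.32% in the control and OIM libraries and 1.54% to 1.67% in the bFGF libraries.

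The make-up of the family therefore differed between the bFGF libraries and the rest. ANXA5 took 21% of annexin counts in the control group, 21.6% in the OIM group and 25.7% in the bFGF group, and ANXA7 took 3.17%, 3.24% and 4.57%. ANXA2 held 35.2%, 34.5% and 35.2%. These shares sum to 100 within a library, so that a lower share of ANXA8 raises the others.

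The partner list held 18 genes whose products bind annexins or are regulated by them, of which 16 were in the table and tested. Receptors FPR1 and FPR2, through which ANXA1 signals, were not analysed here. For OIM against control 0 of 16 were called by edgeR and by DESeq2 (1.49% of all genes higher and 0.864% lower), and 9 passed an unadjusted p of 0.05 (26.2%). For bFGF against OIM 3 rose (S100A6, S100A4 and PLA2G4A) and 0 fell, against 17.7% and 18.4% of all genes, which is close for higher calls, and DESeq2 called 3 in all as well. By adjusted p alone 9 were lower and 5 higher (33.5% and 33.8% of all genes), which turned to 3 lower and 6 higher with library totals alone. That scaling moved the median of all genes to 0.22, and the share of all genes by adjusted p alone was not computed for it. For bFGF against control the same 3 rose and 2 fell (18.9% and 20.0% of all genes). These 2 were AHNAK, a giant scaffold protein that binds the ANXA2 complex, by 0.51 on the log2 scale, and DYSF, and both calls ended with library totals alone (-0.28 and -0.50).

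S100A10 is the partner in the ANXA2 complex and is known to be protected from degradation by ANXA2. It had 122, 107 and 121 CPM in the control libraries, 86.5, 90.8 and 83.3 CPM in the OIM libraries and 107, 109 and 109 CPM in the bFGF libraries. The OIM libraries were thus the lowest and the control and bFGF libraries overlapped. The log2 fold change was -0.42 ± 0.05 (SE, edgeR adjusted p = 5.23e-06) for OIM against control and 0.32 ± 0.05 (adjusted p = 9.83e-06) for bFGF against OIM, both under the limit of 0.5. The latter was 0.54 with library totals alone, and S100A10 was then called higher.

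The ratio of S100A10 counts to ANXA2 counts within a library was 0.0972, 0.0868 and 0.0982 in the control group, 0.0793, 0.0823 and 0.0762 in the OIM group, and 0.111, 0.113 and 0.107 in the bFGF group. The 3 groups did not overlap, and the bFGF group was the highest. S100A11, a partner of ANXA1 and ANXA2, gave another picture. Its ratio to ANXA2 was 0.144 ± 0.00146 (SD, n = 3), 0.148 ± 0.00281 and 0.148 ± 0.0045 in the control, OIM and bFGF groups, and its log2 fold changes (-0.14 for OIM against control and -0.16 for bFGF against OIM) were close in size to those of ANXA2 under the same TMM scaling. With library totals alone the value of S100A11 for bFGF against OIM turned to 0.06, as that of ANXA2 did.

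**Figure D5:**
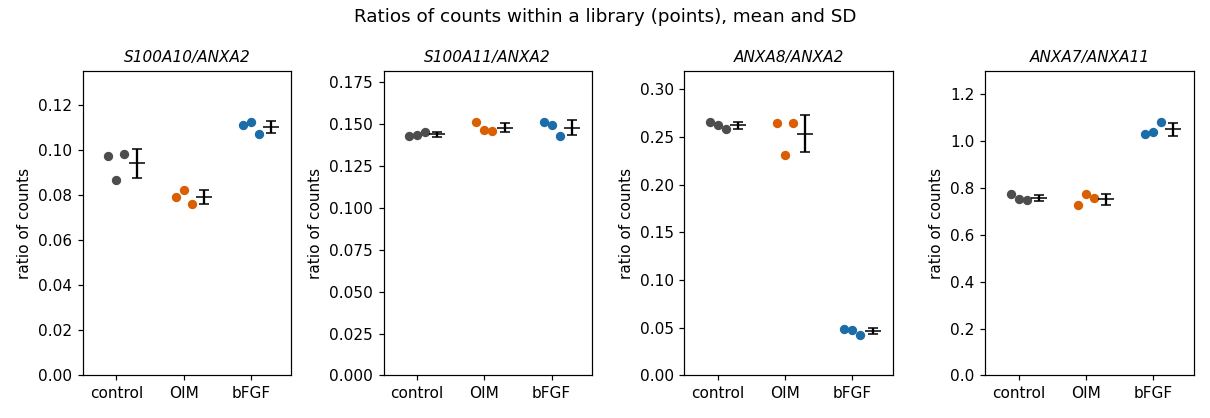
Ratios of the counts of 2 genes within each library (points), with the mean and SD of the 3 libraries of a group; counts are not divided by gene length. S100A10 relative to ANXA2 is lowest in the OIM group (0.0793) and highest in the bFGF group (0.11), S100A11 relative to ANXA2 stays between 0.143 and 0.151 in all libraries, and ANXA7 relative to ANXA11 is 1.05 in the bFGF group.

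S100A6, which binds ANXA11 and ANXA2, had 352, 322 and 335 CPM in the OIM libraries and 599, 609 and 620 CPM in the bFGF libraries. It was lower in OIM than in control by 0.29 on the log2 scale (edgeR adjusted p = 0.000117) and rose with bFGF by a log2 fold change of 0.86 ± 0.04 (SE; adjusted p = 9.94e-13). PLA2G4A, the cytosolic phospholipase A2 that ANXA1 inhibits, rose most in the list, by a log2 fold change of 0.94 ± 0.04 (SE; adjusted p = 2.15e-13), from 118 ± 8.51 CPM (SD, n = 3) in the OIM group to 226 ± 2.56 CPM in the bFGF group. S100A4 rose most against the control group, with a log2 fold change of 1.16.

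PDCD6, the calcium sensor that binds ANXA7 and ANXA11, and SRI (sorcin), a partner of ANXA7, were not called in either direction. PDCD6 had a log2 fold change of -0.11 ± 0.05 (SE, edgeR adjusted p = 0.0844) for bFGF against OIM with overlapping groups, and 0.11 with library totals alone. SRI was lower in the bFGF group by 0.28 on the log2 scale (SE 0.06; adjusted p = 0.0004), and by 0.06 with library totals alone (adjusted p = 0.396). DYSF (dysferlin), a membrane repair protein that binds ANXA1 and ANXA2, fell against the control group by 0.72 on the log2 scale (adjusted p = 4.87e-05), from 9.23 ± 0.575 to 5.59 ± 0.696 CPM.

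The matrix vesicle list held 13 genes, of which 11 were tested. The phosphatases ALPL and PHOSPHO1, which release phosphate in and around these vesicles, did not pass the filter, with ALPL at 1 to 15 counts and PHOSPHO1 at 0 to 2 counts per library. For OIM against control 0 of 11 were called by edgeR and by DESeq2 (1.49% of all genes higher and 0.864% lower), and 6 passed an unadjusted p of 0.05 (26.2%). For bFGF against OIM 4 of 11 rose (ANKH, NT5E, SLC20A1 and SLC20A2) and 2 fell (SPP1 and CD9), where 17.7% of all genes rose and 18.4% fell. The lower calls were as frequent as over all genes and the higher calls more frequent, in a list written with earlier results known. The same counts were found against the control group (18.9% and 20.0%). With library totals alone MGP was also called higher in these comparisons (0.52 and 0.65), where 3733 and 3931 of 13662 genes were called higher. ANKH, which carries pyrophosphate out of the cell, had 22.6, 27.7 and 24.7 CPM in the OIM libraries and 118, 122 and 115 CPM in the bFGF libraries, a log2 fold change of 2.24 ± 0.06 (SE, edgeR adjusted p = 1.39e-16). SPP1, which encodes the matrix protein osteopontin, fell from 34, 35.3 and 35.6 CPM to 8.88, 10.1 and 9.89 CPM, a log2 fold change of -1.86 ± 0.07 (SE; adjusted p = 7.76e-15).

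The membrane repair list held 15 genes, of which 14 were tested. CAV1, the structural protein of caveolae, was the only gene of the list called for OIM against control (0.864% of all genes called lower), with 212, 215 and 211 CPM in the control libraries and 139.9, 142 and 141 CPM in the OIM libraries. It fell by 0.59 on the log2 scale (SE 0.04; edgeR adjusted p = 3.69e-09), and against the control group the bFGF group was lower by 0.97. For bFGF against OIM, EHD1, EHD2 and VPS4B fell and CHMP4C rose, and for bFGF against control CAV1 fell with these 3 and CHMP4C rose. These are 3 of 14 lower and 1 of 14 higher (18.4% and 17.7% of all genes), and 4 and 1 of 14 against control (20.0% and 18.9%). The calls of EHD2 (-0.46), EHD1 (-0.38) and VPS4B (-0.28) for bFGF against OIM ended with library totals alone, as did those of EHD1 (-0.32) and VPS4B (-0.32) for bFGF against control. EHD2, which stabilizes caveolae, fell most, by 0.68 on the log2 scale (SE 0.05; adjusted p = 7.2e-11), and CHMP4C, a subunit of the membrane-cutting ESCRT-III complex, rose by a log2 fold change of 1.02 ± 0.25 (SE; adjusted p = 0.00111) from a level of 1.25 ± 0.223 CPM (SD, n = 3). VPS4B, with a log2 fold change of -0.50, sat at the limit.

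Each member was matched to the genes whose log2 CPM profile over the 9 libraries, centred on its own mean, differed least from it among 11827 genes with a mean of at least 1 CPM. For ANXA8 the nearest was IGF1, a growth factor gene, with a root-mean-square difference of 0.0731, followed by ABLIM1 (0.0846) and PPP4R4 (0.123), where ANXA8 itself spanned 2.94 on the log2 scale. For ANXA4 the nearest were ASPH (0.0312), SNX18 (0.0315) and ACBD3 (0.036), over a range of 0.86. ANXA2 was near CHD6 (0.0277), its partner S100A11 (0.0311) and SLC16A1 (0.0315), and ANXA1 was near TRPM7 (0.0273), LUM (0.0378) and PREPL (0.0382). ANXA6 and ANXA11 shared a near gene, CLTC, the clathrin heavy chain, at 0.0186 and 0.0212. ANXA7 was nearest to UGGT1 (0.0223) and ANXA5 to RPS6KB1 (0.0219), while the nearest gene of ANXA3, ABHD8, was at 0.101. These distances describe the profiles and nothing more.

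Marker genes also moved with the bFGF group. The 4 myofibroblast and smooth muscle markers ACTA2, TAGLN, CNN1 and MYH11 summed to 9851 to 13050 CPM in the OIM libraries and 1536 to 1712 CPM in the bFGF libraries, and 4 of 4 fell, where 18.4% of all genes did. The sum of the 9 interstitial markers was 61570 to 64380 CPM in the OIM libraries and 38750 to 39100 CPM in the bFGF libraries, with 4 of 9 lower and 2 of 9 higher (18.4% and 17.7% of all genes). Most of this sum came from COL1A1, COL1A2 and COL3A1, which were called lower with DCN. VIM (0.66) and POSTN (1.46) were called higher, and LUM and PDGFRA did not pass by adjusted p. The call of COL3A1 (-0.72) ended with library totals alone (-0.4995). The sum of 7 endothelial markers was 20.7 to 23.1 CPM against 35.9 to 38.5 CPM, with 5 of 7 higher (17.7% of all genes), and none of the 7 was at 3 counts or fewer in every library of a group. Of the 7 leukocyte markers 4 were tested, and 1 of them, CD163, fell by 0.88 on the log2 scale (edgeR adjusted p = 0.0356), a call that ended with library totals alone (adjusted p = 0.106). The sum of the 7 was 1.88 to 2.98 CPM in the OIM libraries and 1.55 to 1.75 CPM in the bFGF libraries. The part of these markers in the differences of ANXA8, ANXA4 and ANXA7 was not tested.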

How the data were processed

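RNA from PVICs was sequenced in 3 libraries each of the control, OIM and bFGF groups, and the labels gave each library's group and replicate number. The sources differ on how the reads were handled: the paper's methods name poly-A selection, Cutadapt and STAR, while the labels name ribosomal RNA removal, and the submitters' processing notes list Trimmomatic, HISAT2, StringTie and Sscrofa11.1. The counting program and its use of strand are not given in the sources used here. The authors deposited a single table without normalization, with whole-number counts for 19535 genes, estimated counts (expected counts) for 9888 non-coding transcripts, which were not used, and junction counts for 6179 circRNAs. Its 19 columns without a name or a value were not used, and 25 gene symbols that had been altered to dates were not matched to any list.

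Differential expression was computed from the gene counts with edgeR 4.0.16, run in R 4.3.3 (filterByExpr, TMM factors of 0.9365 to 1.111, a quasi-likelihood fit of 3 groups in all 9 libraries with 6 residual degrees of freedom). Standard errors are the log2 fold change divided by the square root of F, 95% intervals use the degrees of freedom of the fit, and CPM are on TMM-scaled library sizes. The common coefficient of variation between libraries of a group, beyond counting error, was 0.0602. On simulated data for bFGF against OIM, 13544 genes were tested and 200 were changed by 1 on the log2 scale. Of these genes 200 of 200 were recovered, with 5 false calls. In the measured data 2420 genes were called higher and 2519 lower in this comparison, and ANXA8 alone among the members reached 1 in size. Recovery of smaller differences, or with so many genes differing, was not tested. The members and lists were chosen with earlier results of these data known. All members are named, and from each list those genes named in advance for their link to a member, the called gene with the largest change in each direction, and, where 5 or fewer were called, each of them, chosen after their values were seen. Alternatives were DESeq2 1.42.0, other size factors, filters and fold limits, fits of 2 groups, a replicate block, leaving out each library, other denominators and transcript lengths. Loci and sequences are from the RefSeq annotation of Sscrofa11.1, to which 9 of 9 members matched by symbol.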

Additional observations from a re-analysis of the deposited data

Results flagged for a closer look

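The circRNA rows of the table were not part of any comparison. A circRNA within ANXA5, from chr8:102406165-102418815 on the plus strand with both ends at exon boundaries, was listed with junction counts in 5 of 9 libraries. It had 7, 0 and 0 counts in the control libraries, 6, 6 and 0 in the OIM libraries and 10, 0 and 7 in the bFGF libraries, and it drew attention because the sums of 12 in the OIM group and 17 in the bFGF group exceeded the 7 of the control group. The counts of the groups overlap, and the difference was not tested. A circRNA within ANXA2 had summed counts of 3, 0 and 3 in the control, OIM and bFGF groups.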

How the results depend on the processing

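Over the 17 alternatives, 443 of 459 member values kept their direction and their call by the full criterion. By adjusted p alone, 34 of 432 values from refitted models lay on the other side of 0.05, 23 of them for OIM against control. With library totals alone, which moved the median of all genes to 0.22 (bFGF against OIM) and 0.21 (bFGF against control) and the calls for bFGF against OIM from 2420 higher and 2519 lower to 3733 and 1694, the log2 fold changes of ANXA1, ANXA2, ANXA3, ANXA6 and ANXA11 for bFGF against OIM turned to 0.20, 0.064, 0.044, 0.028 and 0.051, and those of ANXA1, ANXA3 and ANXA5 for bFGF against control to 0.017, 0.017 and 0.18. For bFGF against OIM, 1 annexin (ANXA7) was then called higher and 1 lower, with 1 gene of the repair list called. For bFGF against control 3 partner and 3 repair genes were called, where 3931 of 13662 genes were called higher and 1840 lower. With a fold limit of 1 on the log2 scale, which 1216 higher and 1245 lower of 13662 genes passed for bFGF against OIM and 1339 and 1417 for bFGF against control, 1 annexin was called lower in each bFGF comparison, with 0 partner, 3 vesicle and 1 repair genes for bFGF against OIM, 2 partner and 1 repair genes against control, and 0 repair genes for OIM against control.

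The number of annexins that differed by adjusted p alone for OIM against control was 5, compared to 6 with DESeq2 or with a minimum of 1 CPM in 3 libraries, where ANXA11 passed too, 3 with library totals alone, 3 with only the groups compared, and 3 to 5 when libraries were left out: it was 3 without control replicate 1 or 3, OIM replicate 1 or 3, or bFGF replicate 1 or 2. The cause was not tested. Leaving out libraries moved the log2 fold change of ANXA3 for OIM against control from -0.14 to 0.093 and that of ANXA1 for bFGF against OIM from -0.028 to 0.0037, neither of which was called. ANXA3 turned without control replicate 2 (0.0075), control replicate 3 (0.01) or OIM replicate 1, and ANXA1 without OIM replicate 2. Without the 50 most abundant genes the annexin share was 0.444%, 0.399% and 0.367%. With the longest transcript as length, ANXA2 was at 786, 695 and 623 CPM per kilobase and ANXA11 at 56.1, 52.0 and 46.2, and the order of the means was unchanged. ANXA7 stayed at 56.9, 52.4 and 65.0, nearly level with ANXA11 in the control and OIM groups, and overlap of libraries was not examined. Only ANXA2, ANXA8 and ANXA11 have a longest transcript shorter than their merged exons, so the other members could not move.

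Same-numbered replicates did not deviate together (correlations of -0.032 to 0.0035, and 0 of 9 libraries closest to their own number). The numbers thus gave no sign of pairing, but with 3 libraries per group this does not show whether same-numbered libraries shared a culture or batch. With the replicate block, 0 annexins were called for OIM against control and 2 lower in each bFGF comparison, and 4 differed by adjusted p alone for OIM against control. ANXA3 had the fewest counts of the members, 79 to 143 per library.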
